A study of Rattus norvegicus with 64 samples.

Results

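The 10 genes described here encode chaperonins, the barrel-shaped protein-folding machines of the cell. Tcp1, Cct2, Cct3, Cct4, Cct5, Cct6a, Cct7 and Cct8 encode the 8 subunits of TRiC (also called CCT) in the cytosol, and Hspd1 and Hspe1 encode Hsp60 and its lid Hsp10 in mitochondria. They were chosen by symbol, and each symbol matched 1 Ensembl gene in each of the 64 count files, so that 10 of the 26405 genes listed in any file were taken (10 of the 17366 listed in all of them). All 10 passed the filter on low counts. The lowest raw count of any member in a kept rat was 223, for Hspe1.

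Gene expression was measured by RNA-seq in globin-depleted whole blood of male Sprague-Dawley rats aged 85 to 90 days, without genetic modification. Every rat had received 4 injections, 2 h apart, of normal saline or amphetamine (AMPH), and blood was drawn from the heart 3 h after the last. The groups were saline given at 22.5 °C, saline given at 16 °C (both described by the submitters as normothermic), saline given at 39 °C (environmentally-induced hyperthermia), AMPH given at 16 °C (described as normothermic and non-neurotoxic) and AMPH given at 22.5 °C (described as hyperthermic and neurotoxic). The larger study to which these rats belong looked for transcripts in blood that mark exposure to hyperthermia or to AMPH, and for immune-related responses to them.

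Of the 64 rats, 5 whose myoglobin (Mb) count exceeded 5000, a criterion of the study for cardiac muscle picked up by the needle, were left out of the comparisons. This kept 4 rats given saline at 22.5 °C, 5 given saline at 16 °C, 15 given saline at 39 °C, 13 given AMPH at 16 °C and 22 given AMPH at 22.5 °C. Ranges, counts of rats and phrases such as every rat refer below to these kept rats. Some rats left out stood above the kept rats of their group, as given under other observations. Body temperatures were not in the labels, and AMPH rats that overheated were placed on ice per the study's methods, so the heat load of single rats is not known here. Total counts per library ran from 19055615 to 40530319. The libraries carried 14 codes, each taken to be a sequencing project, and the projects were spread unevenly over the groups. Per the paper, the experiment was repeated on several dates, with more saline controls than the 6 rats given saline at 22.5 °C here. It also reports a control group with rats removed for high Mb, first sequenced with a poor library reagent and then sequenced again. The labels do not state whether the saline 22.5 °C rats are that group. Every marker of T cells, B cells, monocytes, neutrophils, reticulocytes, platelets and proliferating cells that passed the filter was above 0 in each of the 59 kept rats, whereas the cardiac markers were at or near 0 in many (Mb was at 0 in 5).

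TRiC consists of a pair of stacked rings that take in newly made proteins and fold them within a closed chamber. Actin and tubulin are its best-known clients, which is why every nucleated cell depends on it. Hsp60 works on proteins imported into mitochondria, with Hsp10 closing the chamber, and both are classical targets of the heat shock response, in which heat shock factor 1 binds repeated GAA units in promoters.

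Hspd1 and Hspe1 lie next to each other, head to head, so the DNA between their starts is shown first. In the RefSeq promoter table for GRCr8, Hspd1 started at position 64084037 on the minus strand of chromosome 9 and Hspe1 at position 64084327 on the plus strand, with 289 bases between the starts. The 250 bases before the start of Hspe1, chr9:64084077-64084326 on the plus strand, read 5′ to 3′ with capitals for matches to the heat shock element letters GAANNTTC or TTCNNGAA:
Hspe1: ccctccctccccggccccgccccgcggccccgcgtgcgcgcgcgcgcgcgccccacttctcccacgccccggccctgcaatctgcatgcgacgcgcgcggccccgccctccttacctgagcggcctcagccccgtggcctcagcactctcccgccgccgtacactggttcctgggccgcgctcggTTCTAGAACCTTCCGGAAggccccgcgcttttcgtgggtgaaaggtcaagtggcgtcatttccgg
The capitals are 1 unbroken run of 18 bases made of 3 overlapping matches, from 65 to 48 bases before the start of Hspe1. The same 18 bases, positions 64084262 to 64084279, lie 242 to 225 bases before the start of Hspd1 when read from its own strand.

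All 10 members were matched in the same table, and windows of 300 bases (250 before to 50 after each start) were searched for these letters on both strands, since each form is its own reverse complement. At least 1 match was found in 5 members and in 15.9% of the 33469 promoters of the table. The longer forms with 3 units, GAANNTTCNNGAA and TTCNNGAANNTTC, contain the shorter ones and were found in Hspd1, Hspe1 and Cct4 and in 0.798% of all promoters. In Cct4 the match stood 26 to 38 bases after the start, on chromosome 14. Cct5 and Cct6a had a single short match before the start, shown on the strand of the gene with 15 bases on each side, at chr2:84313921-84313958 and chr12:32519090-32519127, both on the minus strand:
Cct5: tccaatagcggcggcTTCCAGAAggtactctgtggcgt
Cct6a: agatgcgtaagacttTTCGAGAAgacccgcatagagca
The windows of Tcp1, Cct2, Cct3, Cct7 and Cct8 held no match. A match describes letters in these windows and no binding was measured.

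The mitochondrial pair showed the widest range of the 10 genes. Levels are given in CPM (read counts scaled to library size), adjusted with TMM factors, and are compared between rats but not between genes because transcript lengths were not used. In whole blood, fewer cells of a type and less RNA per cell cannot be told apart, which holds for every result below. Hspd1, the Hsp60 gene (ENSRNOG00000014525), stood at 44.8, 37.3, 33.7 and 34.8 CPM in the 4 rats given saline at 22.5 °C and at 32.8, 37.1, 36.1, 36.0 and 33.1 CPM in the 5 given saline at 16 °C. Among the 13 rats given AMPH at 16 °C it ran from 21.1 through a median of 33.7 to 40.8 CPM. The 3 groups therefore overlapped in a narrow band.

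In the 22 rats given AMPH at 22.5 °C, Hspd1 ran from 38.4 through a median of 152 to 1591 CPM. In the 15 rats given saline at 39 °C it ran from 51.5 through a median of 468 to 2723 CPM. All 15 rats kept at 39 °C and 21 of the 22 rats given AMPH at 22.5 °C lay above each of the 9 rats given saline at 22.5 or 16 °C. The exception was AMPH 22.5 °C replicate 16, and replicates 17 and 20, at 46.9 and 47.5 CPM, were only just above. At 39 °C, replicates 14 and 4 were the lowest, at 51.5 and 61.5 CPM.

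Hspe1, the Hsp10 gene (ENSRNOG00000014868), stood at 14.7, 17.6, 14.8 and 16.6 CPM with saline at 22.5 °C and at 14.5, 16.6, 21.7, 21.4 and 15.4 CPM with saline at 16 °C. With AMPH at 16 °C it ran from 9.15 through a median of 15.4 to 37.1 CPM, the highest value belonging to replicate 8. With AMPH at 22.5 °C it ran from 17.1 through a median of 78.9 to 897 CPM, and with saline at 39 °C from 27.8 through a median of 132 to 766 CPM. As for Hspd1, the AMPH 22.5 °C and saline 39 °C groups were high and widely spread. All 15 rats at 39 °C and 19 of the 22 given AMPH at 22.5 °C lay above each of the 9 rats given saline at 22.5 or 16 °C.

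**Figure D1:**
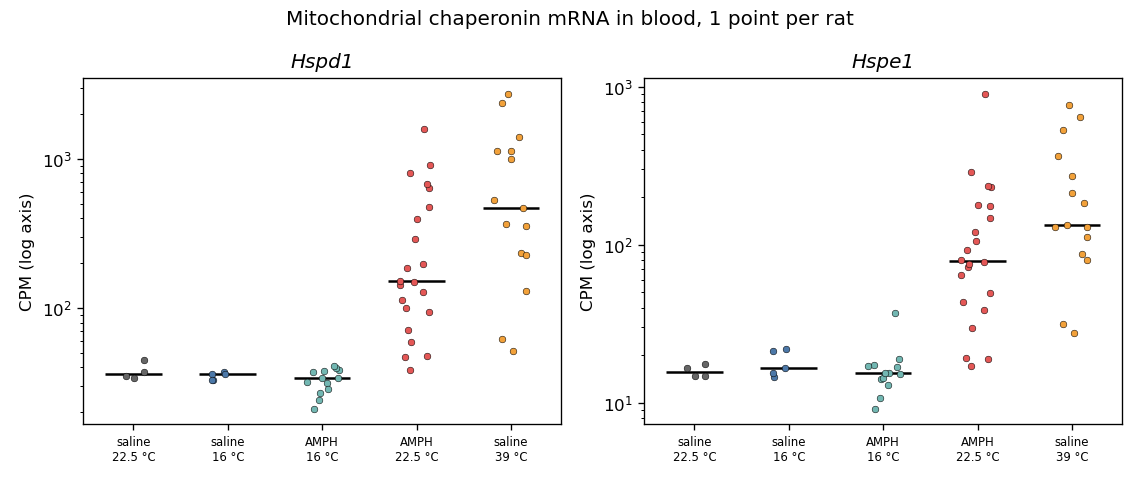
Hspd1 (left) and Hspe1 (right) in CPM on a log axis, with 1 point per rat in each of the 5 groups and a line at the group median. Both genes lie in a narrow band with saline at 22.5 and 16 °C and with AMPH at 16 °C, and spread widely with AMPH at 22.5 °C and saline at 39 °C, where Hspd1 reached 1591 and 2723 CPM.

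The TRiC subunits moved over a smaller range. Tcp1 (ENSRNOG00000014160), which encodes CCT1, stood at 50.6, 54.2, 41.9 and 47.0 CPM with saline at 22.5 °C and at 41.4, 45.6, 57.0, 56.6 and 41.7 CPM with saline at 16 °C. It ran from 23.0 through a median of 34.7 to 60.3 CPM with AMPH at 16 °C, and from 44.8 through 70.7 to 149.9 CPM with AMPH at 22.5 °C. With saline at 39 °C it ran from 40.5 through 91.0 to 232 CPM, so that all 5 groups overlapped. Of the rats, 12 of 15 at 39 °C and 14 of 22 given AMPH at 22.5 °C exceeded every kept rat given saline at 22.5 or 16 °C.

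Cct3 (ENSRNOG00000019090), which encodes CCT3, separated the groups more fully than any other TRiC subunit by the number of rats beyond the saline range. It stood at 64.7, 65.9, 48.9 and 65.2 CPM with saline at 22.5 °C and at 54.4, 55.8, 64.1, 62.9 and 48.2 CPM with saline at 16 °C. It ran from 30.7 through a median of 49.0 to 65.6 CPM with AMPH at 16 °C, from 57.7 through 83.1 to 167 CPM with AMPH at 22.5 °C and from 55.4 through 119 to 187 CPM with saline at 39 °C. Every kept rat given saline at 22.5 or 16 °C was exceeded by 18 of 22 rats given AMPH at 22.5 °C. The same held for 13 of 15 rats at 39 °C and for no kept rat given AMPH at 16 °C.

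The other 6 subunits followed the same order of medians, highest at 39 °C, then AMPH at 22.5 °C, and lowest with AMPH at 16 °C. The median of Cct5 (ENSRNOG00000011632, CCT5), for example, was 186 CPM at 39 °C, 159 CPM with AMPH at 22.5 °C and 113 CPM with AMPH at 16 °C. For Cct4 (ENSRNOG00000009642, CCT4) these medians were 174, 146 and 88.0 CPM. In these 6 genes between 8 and 13 of the 22 rats given AMPH at 22.5 °C exceeded all kept saline rats of 22.5 and 16 °C. At 39 °C between 9 and 12 of the 15 did.

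**Figure D2:**
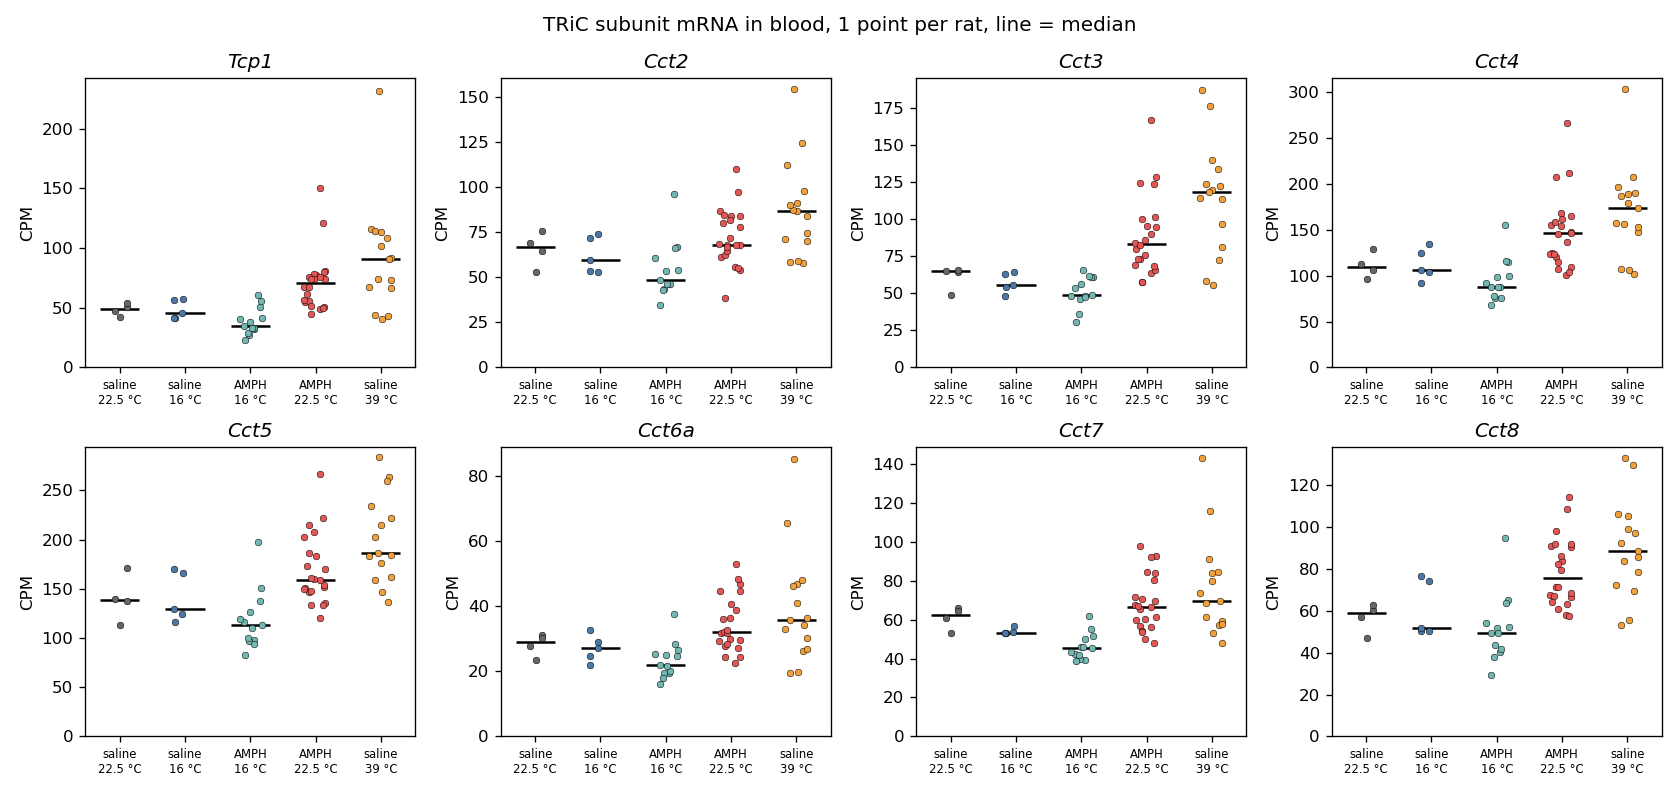
CPM of the 8 TRiC subunits, 1 panel per gene, with 1 point per rat in each of the 5 groups, a line at the group median and axes starting at 0. In every panel the AMPH 16 °C median is the lowest and the saline 39 °C median the highest, as for Cct3 at 49.0 and 119 CPM, and the groups overlap.

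The number of TRiC subunits above the kept saline rats was also counted rat by rat. The share of all genes beyond this range is not given, for these counts or those above, and the subunits varied together. The counts therefore describe the members only. Of the rats at 39 °C, 8 of 15 had all 8 TRiC subunits above every kept rat given saline at 22.5 or 16 °C, and 2 had none above. Of the rats given AMPH at 22.5 °C, 4 of 22 had all 8 above and 3 had none, with a median of 5. Of the rats given AMPH at 16 °C, 12 of 13 had none above, and replicate 8 had 6. The rats at 39 °C with none of the TRiC subunits above, replicates 4 and 14, were also those with the lowest Hspd1 and Hspe1.

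The comparison of AMPH at 22.5 °C with AMPH at 16 °C holds the drug constant and asks what the environment added. All 10 chaperonin genes were higher at 22.5 °C, the mitochondrial pair by 6.06- to 7.04-fold and the TRiC subunits by 1.36- to 1.81-fold. In edgeR's quasi-likelihood test with Benjamini-Hochberg adjustment over 14000 genes, 10 of 10 members were called higher at an adjusted p under 0.05, where 5.61% of all genes were called higher and 10.3% in either direction. The median log2 fold change was 0.56 over the 8 TRiC subunits and 0.02 over all genes.

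Hspd1 rose by 2.82 ± 0.61 on the log2 scale (SE, 22 and 13 rats), or 7.04-fold, with an adjusted p of 0.00204 from edgeR. Hspe1 rose by 2.60 ± 0.55, or 6.06-fold (edgeR adjusted p = 0.00137). Of the 22 rats at 22.5 °C, 21 for Hspd1 and 18 for Hspe1 exceeded every rat given AMPH at 16 °C.

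Among the TRiC subunits, Tcp1 rose by 0.85 ± 0.21 on the log2 scale, 1.81-fold, with an edgeR adjusted p of 0.00648. Cct3 rose by 0.70 ± 0.16, 1.63-fold (edgeR adjusted p = 0.0034), and 19 of 22 rats exceeded every rat given AMPH at 16 °C. Cct8 (ENSRNOG00000001592, CCT8) rose by 0.64 ± 0.15, 1.56-fold, although only 3 of 22 rats exceeded every rat given AMPH at 16 °C. The group of AMPH at 16 °C ran up to 94.9 CPM in this gene against a median of 49.4.

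Cct4 rose by 0.60 ± 0.15, from a median of 88.0 to 146 CPM. Cct5 rose by 0.52 ± 0.13 and Cct7 (ENSRNOG00000015630, CCT7) by 0.51 ± 0.13, the latter from a median of 45.4 to 66.5 CPM with 13 of 22 rats above every rat given AMPH at 16 °C. The smallest changes were those of Cct6a (ENSRNOG00000000923, CCT6) and Cct2 (ENSRNOG00000021317, CCT2). Cct6a rose by 0.49 ± 0.16 (edgeR adjusted p = 0.0467) from a median of 21.9 to 31.9 CPM. Cct2 rose by 0.44 ± 0.14 (edgeR adjusted p = 0.0327) from 48.8 to 68.3 CPM, with 2 of 22 rats above every rat given AMPH at 16 °C.

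The difference had the same direction within sequencing projects. In 5 projects that held rats of both groups, some with only 1 rat of each, each of the 10 members was higher at 22.5 °C in 5 of 5. The within-project log2 difference ran from 1.79 to 4.03 for Hspd1, from 0.76 to 1.02 for Tcp1 and from 0.16 to 1.01 for Cct3.

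Blood cell markers also differed between these groups. Of 4 reticulocyte markers tested edgeR called 2 lower (Hba-a2 and Slc4a1), 3 had an unadjusted p under 0.05 and DESeq2 called 1. Their summed level ran from 16474 through a median of 43510 to 296598 CPM with AMPH at 22.5 °C. With AMPH at 16 °C it ran from 33821 through 73597 to 145338 CPM. Hba-a2 had the largest counts of these markers (median raw count 1478036, against 254548 for Alas2). The libraries were globin-depleted, so the sum also depends on the globin RNA left after depletion. Of 4 platelet markers 1 was higher (Ppbp), and their sum ran from 580 to 5511 CPM at 22.5 °C and from 864 to 4090.0 CPM at 16 °C. No marker of T cells, B cells, monocytes, neutrophils or proliferating cells was called by edgeR, although 2 B cell markers and 1 monocyte marker had an unadjusted p under 0.05 and DESeq2 called 1 monocyte marker. Their part in the chaperonin result was not tested.

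Environmental heat without drug was compared with saline at 16 °C. Hspd1 and Hspe1 rose most, and Cct3 was the TRiC subunit that passed the test. In edgeR's quasi-likelihood test 3 of 10 members were called higher, where 6.11% of all genes were called higher and 8.76% in either direction. Hspd1 rose by 4.11 ± 0.92 on the log2 scale (SE, 15 and 5 rats), or 17.3-fold, with an edgeR adjusted p of 0.00518. Hspe1 rose by 3.02 ± 0.82, or 8.13-fold (edgeR adjusted p = 0.0141).

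Cct3 rose by 0.99 ± 0.27, or 1.98-fold (edgeR adjusted p = 0.0164). Tcp1 differed by 0.71 ± 0.35 without passing the test (edgeR adjusted p = 0.21), and the other 6 subunits gave estimates between 0.23 and 0.48, all above 0. The 5 rats given saline at 16 °C came from 1 project, which held 1 rat at 39 °C, and within it Hspd1 was higher by 4.84 and Cct3 by 1.30. With group as the only term, 8 of 10 members were called higher, where 11.4% of all genes were. In the shared project alone 6 of 10 were called higher, where 10.4% of all genes were, but that fit has 1 rat at 39 °C, assumed to vary like the 5 given saline at 16 °C, so it compares that rat and not the condition.

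Of 5 T cell markers 2 were lower at 39 °C than at 16 °C (Cd8a and Cd247), with sums from 41.5 to 178 CPM against 138 to 174 CPM. Of 4 monocyte markers 2 were higher (Cd14 and Cd68), with sums from 163 to 997 CPM against 258 to 448 CPM. Of 5 neutrophil markers edgeR and DESeq2 called 0 and 3 had an unadjusted p under 0.05, with a median log2 difference of −1.26. Their sums did not overlap, at 1778 to 10819 CPM at 39 °C against 12818 to 29227 CPM at 16 °C. The part of these markers in the chaperonin result was not tested.

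Against saline at 22.5 °C, rats at 39 °C had Hspd1 higher by 3.64 ± 1.01 on the log2 scale (SE, 15 and 4 rats), or 12.5-fold (edgeR adjusted p = 0.0403). Hspe1 differed by 2.98 ± 0.90 with an edgeR adjusted p of 0.0535. In the quasi-likelihood test 1 of 10 members was thus called higher, where 1.94% of all genes were and 2.87% in either direction. All 10 estimates were above 0, with Tcp1 at 0.69 ± 0.36 and Cct3 at 0.65 ± 0.28.

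No project held rats of both of these groups, so the fit joined them through AMPH rats and no within-project value exists. With group as the only term 7 of 10 members were called higher, where 13.2% of all genes were. Leaving out saline 22.5 °C replicate 17, 18 or 21 left 0 called, with Hspd1 at adjusted p-values of 0.0835, 0.0919 and 0.19 in edgeR. In turn, these fits called 41 of 14193, 23 of 14198 and 5 of 14184 genes higher. Leaving out replicate 19 left 2 called, Hspe1 having an adjusted p of 0.0423 in edgeR, and leaving out AMPH 22.5 °C replicates 16 and 17 left 3. Of 5 T cell markers edgeR called 1 lower (Cd2), 4 had an unadjusted p under 0.05 and DESeq2 called 4, with a median log2 difference of −1.31. Of 4 monocyte markers edgeR called 1 higher (Itgax), 2 had an unadjusted p under 0.05 and DESeq2 called 1, with a median of 1.42. Of 4 platelet markers edgeR called 1 higher (Ppbp), 4 had an unadjusted p under 0.05 and DESeq2 called 1, with a median of 1.43. T cell sums ran from 41.5 to 178 CPM at 39 °C against 182 to 295 CPM, and monocyte sums from 163 to 997 CPM against 101 to 326 CPM. Platelet sums ran from 1651 to 7569 CPM against 569 to 1573 CPM. Their part in the result was not tested.

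AMPH at 22.5 °C was compared with saline at 22.5 °C to give the effect of the drug in a room-temperature environment. Hspd1 and Hspe1 gave large estimates just beyond the threshold, and the TRiC estimates were small. Hspd1 differed by 2.79 ± 0.86 on the log2 scale (SE, 22 and 4 rats; edgeR adjusted p = 0.062) and Hspe1 by 2.55 ± 0.77 (edgeR adjusted p = 0.057). For both genes 21 of 22 rats exceeded every rat given saline at 22.5 °C. In edgeR's quasi-likelihood test 0 of 10 members were called, where 2.54% of all genes were, while 3 had an unadjusted p under 0.05. DESeq2 called 2 higher, namely Hspd1 and Hspe1, where it called 5.73% of all genes higher.

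The TRiC estimates ran from 0.07 for Cct7 to 0.58 ± 0.30 for Tcp1, all above 0, and their 95% intervals from −0.30 to 1.17 over the 8 genes. Whether the mitochondrial pair was called depended on few rats and on the setting. Without AMPH 22.5 °C replicates 16 and 17, left out after their values had been seen, 2 members were called, with Hspd1 at 3.27 and Hspe1 at 3.00. That fit called 1275 of 13920 genes higher. Without saline 22.5 °C replicate 19, only Hspe1 was called (edgeR adjusted p = 0.0482), where 1002 of 14224 genes were called higher. Group as the only term also gave 2, where 6.67% of all genes were called higher. The fit of rats of shared projects only called 0 of 12794 genes. Over 20 alternative settings Hspd1 ran from 1.48 to 3.27 and Hspe1 from 1.63 to 3.12. The highest edgeR adjusted p was 0.428 for each. In the 2 projects with rats of both groups Hspd1 was higher by 1.57 (6 rats given AMPH and 3 given saline) and 4.52 (1 and 1). Of 4 platelet markers 1 was higher (Ppbp), with sums from 580 to 5511 CPM against 569 to 1573 CPM. No T cell or monocyte marker was called by edgeR. All 5 T cell markers had an unadjusted p under 0.05, with a median log2 difference of −1.04, and DESeq2 called 2, with sums from 39.3 to 318 CPM against 182 to 295 CPM. Of 4 monocyte markers 3 had an unadjusted p under 0.05, with a median of 1.03, and DESeq2 called 2, with sums from 115.5 to 752 CPM against 101 to 326 CPM. The part of these markers in the result was not tested.

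AMPH at 22.5 °C was set against saline at 39 °C to ask whether hyperthermia with and without the drug differed in these genes. The log2 difference of AMPH minus saline was −0.85 ± 0.54 for Hspd1 (95% interval −1.91 to 0.20, 22 and 15 rats) and −0.43 ± 0.50 for Hspe1 (interval −1.41 to 0.54). The TRiC estimates ran from −0.15 to 0.06, with intervals reaching from −0.50 to 0.36. In edgeR's quasi-likelihood test 0 of 10 members were called, where 2.71% of all genes were, 0 had an unadjusted p under 0.05 and DESeq2 called 0.

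With group as the only term 1 member was called lower, Hspd1 at −1.29 (edgeR adjusted p = 0.0361), where 4.61% of all genes were called lower. Within 7 projects that held both groups Hspd1 was higher with AMPH in 2 and lower in the others, from −3.82 to 0.61. Each of these extremes came from a project with 1 rat of each group. In Hspd1, 3 of the 22 rats given AMPH lay below every rat at 39 °C. These were replicates 16, 17 and 20, all from 1 project that held no rat at 39 °C. Of 4 monocyte markers 1 was lower with AMPH, with sums from 115.5 to 752 CPM against 163 to 997 CPM, and its part was not tested.

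In the cool environment the drug gave no called change in the members. AMPH at 16 °C against saline at 16 °C gave 0.44 ± 0.96 on the log2 scale for Hspd1 (13 and 5 rats, 95% interval −1.43 to 2.32) and −0.0092 ± 0.85 for Hspe1 (interval −1.68 to 1.66). With group as the only term the estimate for Hspd1 was −0.10. Of the TRiC subunits, 7 had estimates below 0, the lowest being Cct5 at −0.37 ± 0.23, and Cct3 had 0.13 ± 0.28. In edgeR's quasi-likelihood test 0 of 10 members and 0% of all genes were called, and 0 members had an unadjusted p under 0.05. DESeq2 called 0 members and 91 of 14000 genes. No blood cell marker was called by edgeR or DESeq2. In edgeR 2 of 5 T cell, 1 of 5 B cell and 1 of 4 monocyte markers had an unadjusted p under 0.05. Their part was not tested. Of the 13 rats given AMPH, 10 lay below every rat given saline at 16 °C in Tcp1. The 5 saline rats came from 1 project, which held 1 of the 13 rats given AMPH, so this count is almost wholly between projects. Within that project the log2 difference of Tcp1 was −0.54, from 1 rat given AMPH.

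Saline at 16 °C against saline at 22.5 °C gave estimates from −0.47 to 0.06 over the 10 members (5 and 4 rats). In edgeR's test 0 members were called, where 0.00714% of all genes were, 0 had an unadjusted p under 0.05 and DESeq2 called 0. No project held both groups, and the intervals ran from −2.85 to 2.12. The levels of the 9 rats overlapped for each member named above.

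**Figure D3:**
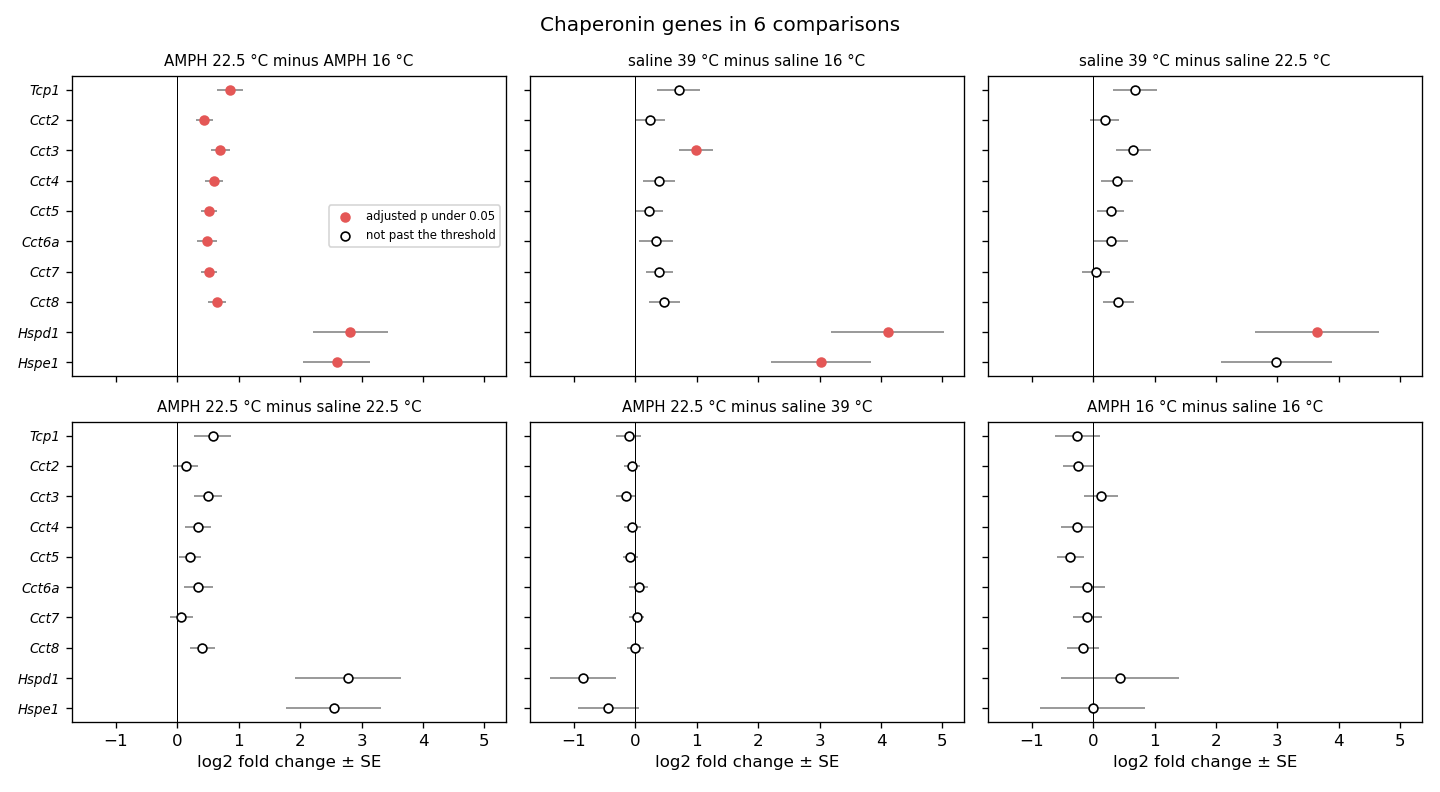
Log2 fold change with its SE for each member in 6 comparisons, with filled points at an adjusted p under 0.05 in edgeR. All 10 points are filled for AMPH at 22.5 °C against AMPH at 16 °C, 3 for saline at 39 °C against 16 °C, 1 against 22.5 °C and 0 in the lower row.

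Whether the effect of AMPH differed between environments was tested as an interaction, the AMPH-minus-saline difference at 22.5 °C minus that at 16 °C. All 10 estimates were above 0, at 2.35 ± 1.28 on the log2 scale for Hspd1 and 2.56 ± 1.15 for Hspe1, and from 0.16 to 0.84 for the TRiC subunits. In edgeR's quasi-likelihood test 0 of 10 members and 0% of all genes were called, with adjusted p-values of 0.706 for Hspd1 and 0.645 for Hspe1. One member, Hspe1, had an unadjusted p under 0.05 and DESeq2 called 0. The comparisons above share groups, so their counts are not independent of each other.

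The other genes of the folding pathway were taken from lists by function. Among heat shock factors and their cytosolic targets, 11 of 14 were higher with AMPH at 22.5 °C than at 16 °C and 0 lower. These included Hsph1, which encodes the Hsp110 chaperone, by 6.30 ± 0.68 on the log2 scale, Hsp90aa1, the inducible Hsp90, by 4.32 ± 0.56 and Stip1, which links Hsp70 to Hsp90, by 2.88 ± 0.34. At 39 °C, 9 of 14 were higher than with saline at 16 °C and 9 of 14 than with saline at 22.5 °C, Hsph1 by 7.57 ± 1.08 and 7.10 ± 1.18. With AMPH against saline at 22.5 °C 8 of 14 were higher, Hsph1 by 6.48 ± 1.08.

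Of 12 other mitochondrial chaperones and proteases, 3 were higher with AMPH at 22.5 °C than at 16 °C and 1 was lower. Lonp1, a matrix protease, rose by 0.57 ± 0.14 and Dnaja3, a mitochondrial J-domain protein, by 0.38 ± 0.12, while Clpx, the unfoldase partner of the ClpP protease, fell by 0.50 ± 0.09 (log2 change −0.50). Hspa9, the mitochondrial Hsp70, was at 0.28 ± 0.15 (edgeR adjusted p = 0.257). The list's median of 0.06 was near the 0.02 of all genes, against 2.71 for Hspd1 and Hspe1.

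Of 9 TRiC partners tested (prefoldin subunits, phosducin-like proteins, Txndc9 and the testis paralog Cct6b), 0 were called by edgeR in this comparison, 2 had an unadjusted p under 0.05 and DESeq2 called 1. Of 5 tubulin cofactors edgeR called 0, 1 had an unadjusted p under 0.05 and DESeq2 called 0. The same counts, 0, 1 and 0, held for 9 actin, tubulin and other client genes. Actb was the 1 client called by edgeR in any of the 8 comparisons, while DESeq2 called 2 clients for AMPH against saline at 22.5 °C and 3 for 39 °C against saline at 22.5 °C. It rose by 0.97 ± 0.21 at 39 °C against saline at 16 °C (edgeR adjusted p = 0.00439).

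Levels of the members varied together across rats. After group and project means were removed from log2 CPM, the 28 pairs of TRiC subunits had Pearson's r from 0.52 to 0.96 with a median of 0.83 over 59 rats. The 16 pairs of Hspd1 or Hspe1 with a TRiC subunit had r from 0.58 to 0.87 with a median of 0.74. The lowest TRiC pair was Cct5 with Cct7 and the highest Tcp1 with Cct4. These values are descriptions, and the points share library, depth scaling and blood cell makeup.

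Of 3 relations examined, Hspd1 with Hspe1 had r = 0.97 and Spearman's rho = 0.96 over 59 rats, each with p = 1e-05 in a two-sided permutation test, the smallest that 100000 permutations can give, and 1e-05 after adjustment over the 3. Leaving out the 2 rats farthest from the median of Hspd1, AMPH 22.5 °C replicates 15 and 9, gave r = 0.96. Tcp1 with Cct2 had r = 0.89 and rho = 0.88 at the same smallest permutation p and adjusted p, and r = 0.88 without its 2 farthest rats. Hspd1 with the mean of the 8 TRiC subunits had r = 0.83 and rho = 0.80, and r = 0.80 without the 2 farthest rats. No p is given for that mean. The permutations exchanged residuals between groups of unlike spread, so their p-values are approximate. The SD of Hspd1 log2 CPM was 0.08 with saline at 16 °C and 1.76 with saline at 39 °C. Inside groups, without removal of project means, Hspd1 with Hspe1 had r = 0.94 with AMPH at 22.5 °C. It was 0.97 with saline at 39 °C and 0.75 with AMPH at 16 °C.

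**Figure D4:**
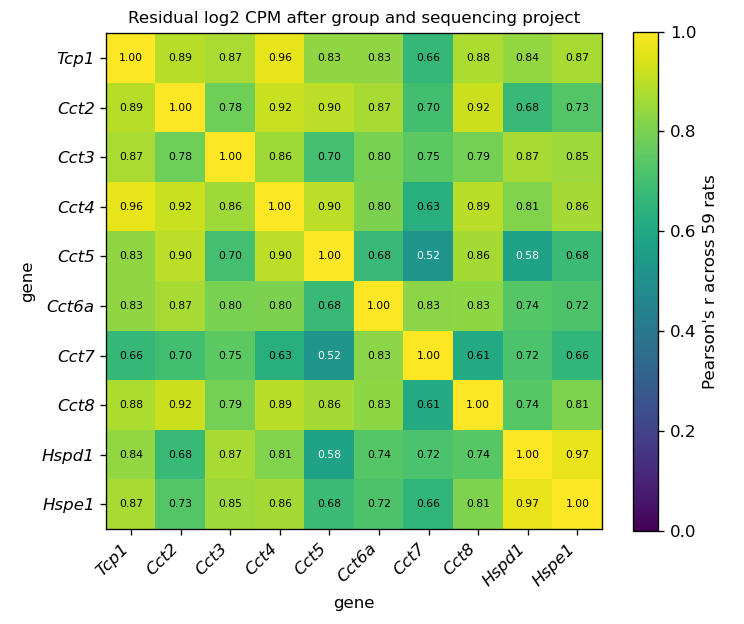
Pearson's r between members across 59 rats, from log2 CPM after removal of group and project means, on a colour scale from 0 to 1. Hspd1 and Hspe1 form the strongest pair at 0.97, and Cct5 with Cct7 is the weakest at 0.52.

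The relation was also present inside single groups, from log2 CPM without removal of project means, so that differences between projects enter these values. Hspd1 and the TRiC mean had r = 0.70 among 22 rats given AMPH at 22.5 °C, 0.88 among 15 rats at 39 °C and 0.85 among 13 rats given AMPH at 16 °C. In the last group Hspd1 stayed between 21.1 and 40.8 CPM. On the same basis, the 28 pairs of TRiC subunits had r from 0.19 to 0.91 with AMPH at 22.5 °C. They ran from 0.61 to 0.98 with saline at 39 °C and from 0.62 to 0.98 with AMPH at 16 °C.

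**Figure D5:**
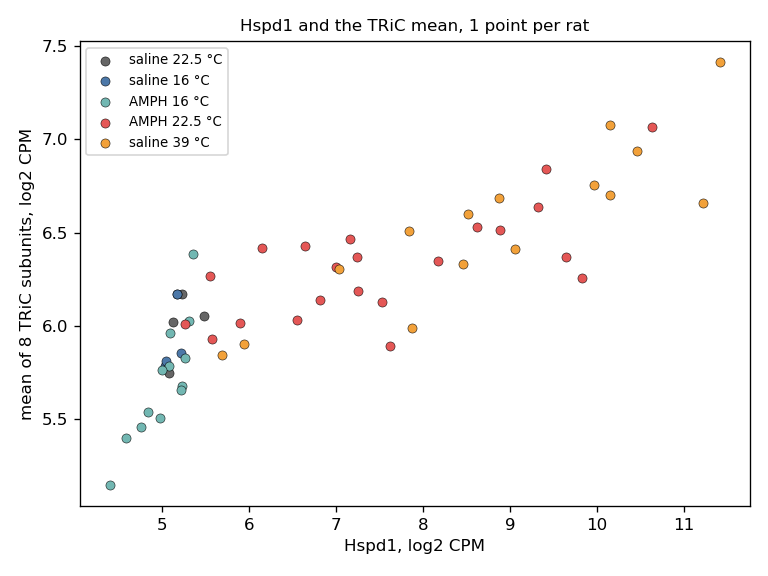
Mean log2 CPM of the 8 TRiC subunits (vertical axis) against log2 CPM of Hspd1 (horizontal axis), 1 point per rat, coloured by group. Rats given saline at 22.5 or 16 °C or AMPH at 16 °C lie on the left in a narrow range of Hspd1, and the rats of the AMPH 22.5 °C and saline 39 °C groups spread to the right with r = 0.70 and 0.88 inside them. Project means were not removed.

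The balance among members was compared as a description. The log2 ratio of Hspd1 to Hspe1 CPM was 1.24 ± 0.25 with saline at 22.5 °C (SD, n = 4), 0.99 ± 0.22 with saline at 16 °C (n = 5), 1.05 ± 0.32 with AMPH at 16 °C (n = 13), 1.18 ± 0.54 with AMPH at 22.5 °C (n = 22) and 1.49 ± 0.51 with saline at 39 °C (n = 15). The ranges overlapped, from 0.70 to 2.24 at 39 °C and from −0.08 to 2.12 with AMPH at 22.5 °C. The value of −0.08 belonged to AMPH 22.5 °C replicate 21. Relative to the mean of the 8 TRiC subunits, and set to 0 in the 9 rats given saline at 22.5 or 16 °C, Cct3 was at 0.32 ± 0.16 at 39 °C and 0.20 ± 0.20 with AMPH at 22.5 °C on the log2 scale. Tcp1 was at 0.22 ± 0.27 and 0.16 ± 0.16, while Cct7 was at −0.20 ± 0.26 and −0.11 ± 0.22.

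The genes whose pattern was most like the TRiC mean, after project means were removed over 59 rats, were Ppid (r = 0.93), l7Rn6 (0.92), Esd (0.90), Chordc1 (0.90) and Hspa4 (0.89). Those most like the mean of Hspd1 and Hspe1 were Hsp90ab1 (r = 0.97), Zfand2a (0.96), Hspa8 (0.95), Pja1 (0.94) and Fkbp4 (0.94). The 2 lists shared no gene.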

How the data were processed

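The 64 rats were assigned to groups by the labels. Per the labels, libraries were strand-specific, made from poly-A RNA after globin depletion and sequenced as paired ends. The authors deposited expected counts per Ensembl gene, and the submitters' processing notes name CASAVA 1.8.2, Bowtie 0.12.9, RSEM 1.2.0 and the rn5 build. RSEM divides reads that match several places, so genes with processed pseudogenes, such as Hspd1 and Hspe1, carry uncertainty from that division.

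From these files, expected counts were rounded, genes listed in all files with at least 10 counts in at least 4 rats were kept, and edgeR 4.0.16 (R 4.3.3) was run with TMM scaling and its quasi-likelihood test on 59 rats in 1 fit, with group and sequencing project (the code that opens each file's name; what it stands for is not stated in the labels) as terms. P-values were adjusted by Benjamini-Hochberg over 14000 genes, and an adjusted p under 0.05 was a call. The biological coefficient of variation was 0.419 with the project term and 0.489 without. DESeq2 1.42.0 was an alternative. CPM values for plots came from the same factors, ratios and log2 values from those, and correlations from residual log2 CPM with a prior count of 1. Correlations inside single groups used log2 CPM without removal of project means. Intervals are normal ones from the SE. Scripts were tested on simulated data.

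All 10 members were named. From each other list, the count called and the called genes with the 3 smallest p-values were named. Hspa9 and Cct6b were named in addition after their values were seen. The 5 genes most correlated with the TRiC mean and with the Hspd1 and Hspe1 mean were named too. Where a listed symbol had several identifiers, the one with the highest mean level was used. Members and lists were chosen with earlier results of these data known. Promoters came from the RefSeq table for GRCr8. No pair of libraries of a group agreed within sampling noise. Rats are separate animals, and their replicate numbers did not pair them across groups.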

Additional observations from a re-analysis of the deposited data

Results flagged for a closer look

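In groups of 4 to 10 rats, 20 sets of values were screened for a rat far from the others, and chance alone marks about 1 in 20 of such sets. Cct3 in saline 22.5 °C replicate 19 was marked, at 48.9 CPM against 64.7 to 65.9 CPM in the other rats of the group, a gap of 0.94 of the group's log2 range. Cct7 in saline 16 °C replicate 3 was also marked, at 56.9 CPM against 52.9 to 53.7 CPM, a gap of 0.79 of the range. No test of a member's difference between environments in the effect of AMPH passed its threshold.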

How the results depend on the processing

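The count of 10 members for AMPH at 22.5 °C against AMPH at 16 °C was 9 to 10 under every alternative run, and the member lost was Cct6a (adjusted p of 0.0585 without the filter, 0.0506 without saline 16 °C replicate 3). The 3 for saline at 39 °C against 16 °C became 8 with group only and 6 in the shared project, a fit of 1 rat at 39 °C that is assumed to vary like the 5 at 16 °C, and stayed at 3 without any 1 of the saline 16 or 22.5 °C rats. The 1 for 39 °C against saline at 22.5 °C became 7 with group only, 2 with DESeq2 size factors and 2 with the DESeq2 Wald test. It became 2 with all rats kept, 0 with the replicate block, and 0 to 3 when rats were left out. Over all genes, calls in either direction in these settings were in turn 3673, 480, 1354, 1352, 0 and 5 to 2842, against 402 in the main fit. Hspd1 fell there to 2.61 under the block (adjusted p = 0.225). The replicate numbers did not pair rats. A correlation of deviations over 0.1 was found in 15 of 59 same-number pairs (mean 0.02) and in 275 of 1222 other-number pairs (mean −0.0006). The 0 for AMPH against saline at 22.5 °C became 2 with group only, 2 with the DESeq2 Wald test and 2 with all rats kept. When rats were left out it was 0 to 2. Over all genes, calls in these settings were in turn 1825, 1128, 1165 and 8 to 3088, against 355 in the main fit. The 0 against 39 °C became 1 with group only, where 1260 genes were called against 380 in the main fit. The block changed no other count of members.

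For AMPH against saline at 16 °C Hspd1 reversed to −0.10 with group only and −0.10 with the block. Hspe1 reversed to 0.017 with DESeq2 size factors, 0.016 with the DESeq2 Wald test and 0.071 with all rats kept, and ran from −0.077 to 0.070 when rats were left out. The cause was not tested. Leaving out AMPH 22.5 °C replicates 16 and 17, or 21 (the only rat of its project), was chosen after seeing the data. Summing identifiers was not run, since each member has 1. The 3 correlations kept their side of the threshold. The 4 and 5 rats in the saline groups and their few projects limit every comparison with them.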

Other observations

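The 5 rats left out for high Mb counts entered no comparison, and their levels were scaled with all 64 rats. AMPH 16 °C replicate 12 stood above every kept rat of its group in Hspd1 (62.3 against at most 40.5 CPM), Hspe1 (54.1 against 36.8), Tcp1 (84.5 against 59.8), Cct3 (97.8 against 64.4) and Cct4 (227 against 154). AMPH 16 °C replicate 2 was above its group in Hspd1, at 45.1 CPM, but not in Tcp1 (31.1 CPM). Saline 22.5 °C replicates 20 and 22 were above the 4 kept rats in Hspe1, at 27.3 and 30.1 CPM against at most 17.1 CPM, and in Tcp1, at 61.8 and 74.4 CPM against at most 52.6 CPM. Replicate 22 was also above them in Cct3, at 83.6 against at most 64.0 CPM, and in Hspd1, at 51.0 against at most 43.6 CPM. Replicate 20 was not, at 58.2 CPM in Cct3 and 43.4 CPM in Hspd1. Saline 39 °C replicate 12 lay within its group in each of these genes.

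Among kept rats, AMPH 16 °C replicate 8 was the highest of its group in Hspe1, at 37.1 CPM, and had 6 TRiC subunits above all 9 rats given saline at 22.5 or 16 °C, while its Hspd1 was not above them.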
